A study of Rattus norvegicus with 8 samples.

Results

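The 6 tumours that received rapamycin, alone or with a second drug, were set against the 2 tumours that received vehicle, and what the treated tumours had in common was described across genes. They make up all 8 tumours of the series and were grouped by their titles. Every tumour grew under the skin of a female NOD-scid mouse, a strain without mature B and T cells, from ELT3-V3 cells. The labels call these rat leiomyoma cells, and ELT3 cells are known to lack tuberin, the product of Tsc2. The mice were 6 weeks old at inoculation and were randomized at a tumour volume of 150 to 200 mm3. The controls received carboxymethylcellulose with Tween-80. The treated tumours were 2 given rapamycin alone at 0.25 mg/kg per day, 2 given rapamycin and clorgyline (clorgyline 10 mg/kg per day), and 2 given rapamycin and rasagiline (rasagiline 1 mg/kg per day). The rapamycin dose is not repeated in the labels for the combinations. All treated tumours therefore share rapamycin, and 4 of the 6 carry a second agent.

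Tuberin, with its partner hamartin, holds back the small GTPase Rheb, which activates the kinase complex mTORC1. Cells without tuberin keep mTORC1 active, and mTORC1 in turn promotes the synthesis of proteins, lipids and nucleotides, supports glycolysis, and restrains lysosome formation and autophagy. Rapamycin binds FKBP12 and blocks mTORC1 in part. Clorgyline and rasagiline inhibit monoamine oxidases, mitochondrial enzymes that break down amines.

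The deposited table lists Ensembl rat gene IDs without symbols, and 0 of its 23918 IDs could be paired with a symbol from the reference used here. Genes are therefore described by ID, level and behaviour, without a function. For the same reason the leiomyoma identity of the tumours, the host cells within them and the level of Tsc2 were not checked. In bulk tumours a loss of cells of a type and less RNA per cell give the same reading and cannot be told apart. The labels do not say whether each tumour came from its own mouse, and the p-values reflect only how these tumours varied.

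Values are TPM, transcript abundances scaled to a fixed sum in each library, which keep no sequencing depth, so no counting interval could be given. A library held between 12317 and 13270 genes at 1 TPM or more. The 13686 genes that reached 1 TPM in at least 2 of the 8 tumours were tested, and differences are on the scale of log2(TPM + 1), which understates the change of weakly expressed genes.

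Taken over all tested genes, treated tumours lay farther from the controls than most of them lay from each other. The difference between 2 tumours was summarised as the root mean square of their log2 differences. It was 0.431 between the 2 controls. Over the 12 pairs of a treated and a control tumour it ran from 0.562 to 0.857 (median 0.678). Over the 12 pairs of treated tumours from different groups it ran from 0.481 to 0.802 (median 0.541). The 2 tumours of a treated group differed by 0.742 for rapamycin alone, 0.516 for the clorgyline combination and 0.499 for the rasagiline combination.

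Rapamycin replicate 2 stood apart from controls and from treated tumours alike. Without it, treated tumours differed from controls by 0.562 to 0.742 and from treated tumours of another group by 0.481 to 0.578, so the ranges met in a narrow band. The treated tumour nearest to the controls was clorgyline combination replicate 1, at a mean of 0.587. This tumour was as far from the other treated tumours, at a mean of 0.588. The remaining treated tumours lay closer to each other treated tumour on average (0.564 to 0.577, and 0.758 for rapamycin replicate 2) than to the controls (0.639 to 0.734, and 0.846 for rapamycin replicate 2).

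**Figure D1:**
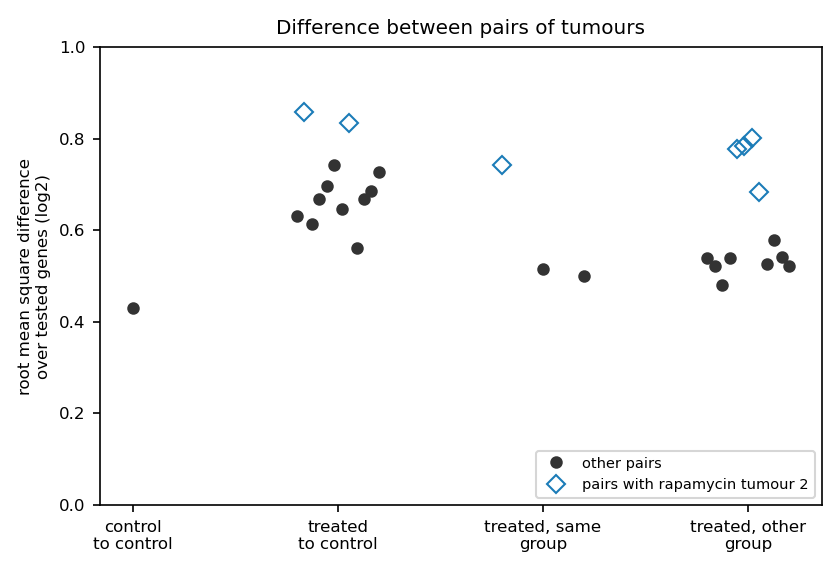
Root mean square difference in log2(TPM + 1) over the 13686 tested genes for each of the 28 pairs of tumours, by kind of pair. Filled circles are pairs without rapamycin replicate 2 and open diamonds are pairs with it; the treated to control circles lie from 0.562 to 0.742 and the circles of treated tumours of different groups from 0.481 to 0.578.

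The comparison of the mean of the 3 treated groups with control asks which genes differed after treatment with rapamycin, with or without a monoamine oxidase inhibitor. Of the tested genes, 171 rose (1.25%) and 163 fell (1.19%), together 2.44% (limma, Benjamini-Hochberg adjusted p below 0.05). The median log2 fold change was 1.20 for the genes that rose, with quartiles of 0.96 and 1.65. It was -1.12 for the genes that fell, with quartiles of -1.69 and -0.84. All tested genes together had a median difference of 0.10, and relative to that shift the called genes stood at medians of 1.10 and -1.22. The genes that rose had a median of 9.88 TPM in controls and 24.1 TPM in treated tumours. For all tested genes these medians were 14.3 and 15.8 TPM. The genes that fell were stronger, with a median of 67.7 TPM in controls and 28.9 TPM in treated tumours.

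For 67.8% of all tested genes the 95% interval of the mean difference lay within 1 log2 unit of 0 on either side, so for these the data bound the mean change below 2-fold on this scale. Before adjustment 2992 genes, or 21.9%, had a p below 0.05. The calls rest on the 2 controls: with either one left out, 0 genes passed limma's test, and the genes below an unadjusted 0.05 numbered 1675 without control replicate 1 and 1605 without control replicate 2. The count was 1306 without rapamycin replicate 1 and 1022 without rapamycin replicate 2, and each of these sets contained all 334 genes. It fell to 37 and 7 without clorgyline combination replicate 1 or 2, and to 69 and 17 without rasagiline combination replicate 1 or 2.

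**Figure D2:**
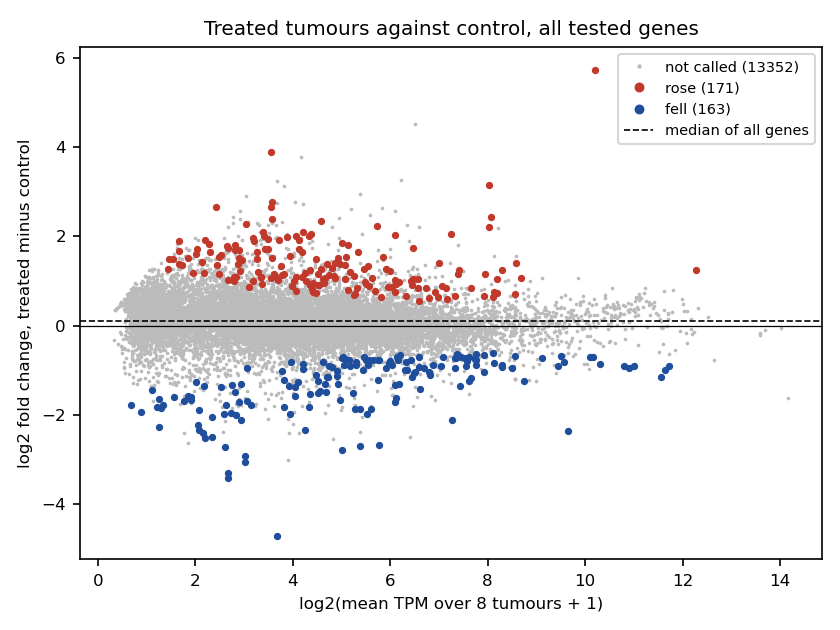
Log2 fold change of treated minus control tumours against the mean level of each of the 13686 tested genes on a log2 scale. Red points are the 171 genes that rose and blue points the 163 that fell (limma, adjusted p below 0.05), grey points were not called, and the dashed line is the median of all genes at 0.10.

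Most called genes differed from control in the same direction in each treated group, though not always to the same extent. The difference from control had the same sign in the rapamycin, clorgyline and rasagiline groups, and at least 0.5 times the size of the mean difference in each, for 162 of the 171 genes that rose and 153 of the 163 that fell. Among all tested genes 41.9% met that description. The calls were made on these same tumours and the groups share their controls, so these counts describe the called genes and are no separate support. Among the genes that rose the median log2 difference was 1.15 for rapamycin alone, 1.01 for the clorgyline combination and 1.38 for the rasagiline combination. Among those that fell it was -1.19, -0.97 and -1.12 in the same order.

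The clorgyline combination was the weakest of the 3 groups in 202 of the 334 called genes, rapamycin alone in 94 and the rasagiline combination in 38. Rapamycin alone was the strongest in 150, the rasagiline combination in 149 and the clorgyline combination in 35. Over all tested genes the clorgyline combination was the weakest in 5995, rapamycin alone in 4658 and the rasagiline combination in 3033. Rapamycin alone was the strongest in 5509 of all tested genes, the rasagiline combination in 4641 and the clorgyline combination in 3536. The order of the groups was not tested.

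By single tumour, the median difference of the genes that rose from the mean of the controls ran from 0.92 in clorgyline combination replicate 1 to 1.45 in rasagiline combination replicate 2. That of the genes that fell ran from -0.96 in clorgyline combination replicate 2 to -1.27 in rapamycin replicate 2. By construction the 2 controls mirror each other about their mean, and their medians lay within 0.03 of it in both sets. These medians do not show how far the controls differed in single genes. Clorgyline combination replicate 1 was the treated tumour nearest to the controls in 129 of the 334 genes, and each other treated tumour was nearest in 23 to 56. Rapamycin replicate 2 was the farthest in 126, and each other treated tumour in 17 to 72. By these counts of genes the tumours nearest to and farthest from control were the same as in the distances over all genes, but by the medians the farthest in the genes that rose was rasagiline combination replicate 2 and the nearest in those that fell was clorgyline combination replicate 2.

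**Figure D3:**
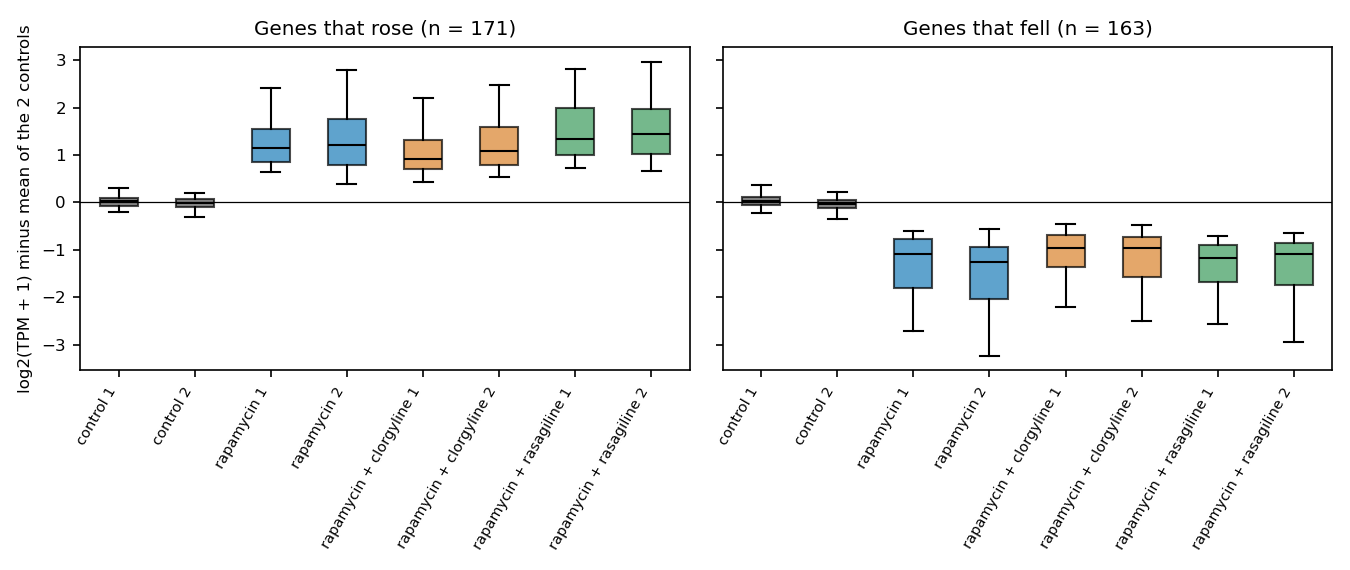
Difference of log2(TPM + 1) from the mean of the 2 controls in each of the 8 tumours, for the 171 genes that rose (left) and the 163 that fell (right). Boxes span the quartiles with a line at the median and whiskers reach the 5th and 95th percentiles; the medians of the 6 treated tumours lie from 0.92 to 1.45 on the left and from -1.27 to -0.96 on the right.

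The 4 genes named here have the widest gap between treated and control tumours, where the gap is the smallest log2 difference between any treated and any control tumour. They were taken from the 149 genes that rose and 145 that fell with no overlap, a mean of at least 5 TPM on the higher side and at least 0.5 times the mean difference in each group, as above. This rule picks extremes, and the sizes below are to be read as such.

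ENSRNOG00000016945 stood at 13.8 and 16.9 TPM in the controls. It reached 508 and 5551 TPM with rapamycin alone, 292 and 904 TPM with the clorgyline combination, and 288 and 1829 TPM with the rasagiline combination. The lowest treated tumour was thus 17.1 times the highest control, while the treated tumours spanned a 19.3-fold range among themselves. The log2 fold change was 5.72, with SE 0.996 and a 95% interval from 3.39 to 8.05 (limma adjusted p = 0.0434). By group it was 6.69, 4.98 and 5.48 for rapamycin alone, the clorgyline and the rasagiline combination. The wide spread among treated tumours left the call near the threshold, and its limma adjusted p ran from 0.0104 to 0.297 over the alternatives.

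ENSRNOG00000052713 was listed at 0 in both controls. It stood at 16.3 and 20.03 TPM with rapamycin alone, 15.4 and 14.5 TPM with the clorgyline combination, and 12.1 and 7.70 TPM with the rasagiline combination. The treated tumours spanned 2.60-fold, far less than those of the gene above. It passed the test with a limma adjusted p of 0.00169, and over the alternatives this ran from 0.000158 to 0.107. With both at 0, the controls added nothing to this gene's own spread. No fold is given against a level of 0. The log2 fold change depends on the pseudocount, and was 3.89 at 1 TPM, 7.12 at 0.1 TPM and 1.92 at 5 TPM.

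ENSRNOG00000027478 stood at 24.6 and 19.9 TPM in the controls. It fell to 3.34 and 0.375 TPM with rapamycin alone, 3.56 and 1.22 TPM with the clorgyline combination, and 3.17 and 0.786 TPM with the rasagiline combination. The lowest control was 5.58 times the highest treated tumour. The log2 fold change was -3.06, with SE 0.523 and a 95% interval from -4.29 to -1.84 (limma adjusted p = 0.0426, and 0.0108 to 0.297 over the alternatives). It was nearly even by group, at -3.24, -2.86 and -3.08 in the order used above.

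ENSRNOG00000048953 stood at 24.6 and 13.0 TPM in the controls, and the treated tumours ran from 0.083 TPM in rasagiline combination replicate 2 to 2.27 TPM in clorgyline combination replicate 1. The lowest control was 5.72 times the highest treated tumour. The log2 fold change was -3.40, with SE 0.338 (limma adjusted p = 0.0221, and 0.00916 to 0.239 over the alternatives). By group it was -3.57, -2.88 and -3.76. The size of this fall depends on the pseudocount, and was -4.54 at 0.1 TPM and -1.98 at 5 TPM; that of ENSRNOG00000027478 was -3.72 and -1.96.

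ENSRNOG00000016945 and ENSRNOG00000027478 ordered the treated tumours in nearly opposite ways. Rapamycin replicate 2, rasagiline combination replicate 2 and clorgyline combination replicate 2 held the 3 highest values of the first and the 3 lowest values of the second, in the same sequence. The pattern was noticed after the values were seen and was not tested.

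**Figure D4:**
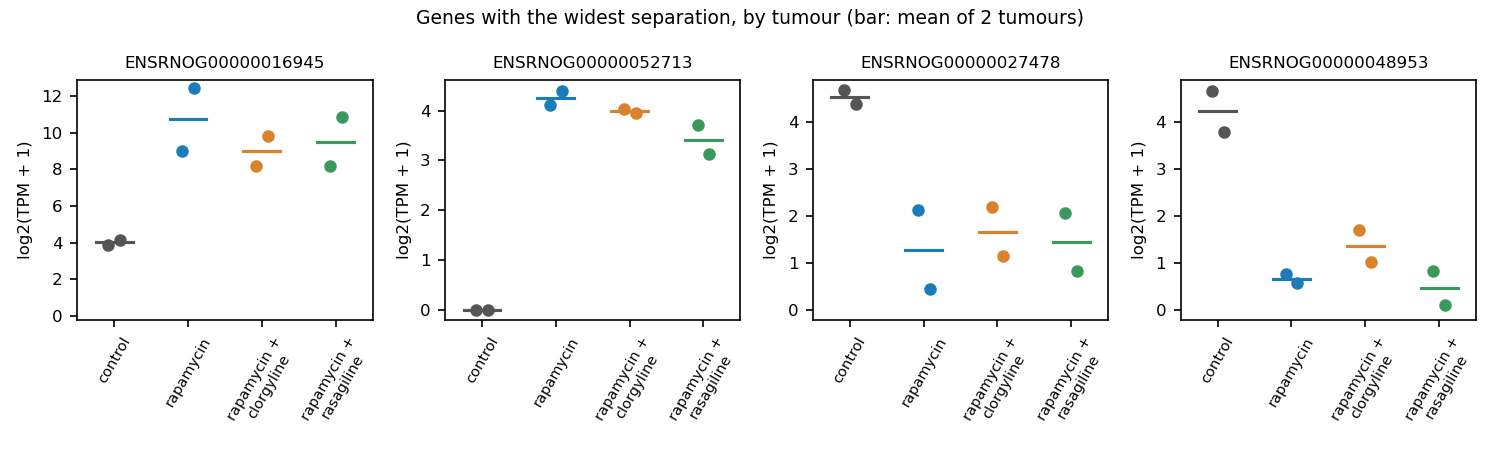
Log2(TPM + 1) of the 4 named genes in each tumour, with a bar at the mean of the 2 tumours of a group. In each panel the 6 treated tumours lie on one side of both controls. On this scale ENSRNOG00000016945 varies most among the treated tumours, from 288 to 5551 TPM (19.3-fold). Without the added 1 TPM the treated tumours span more in ENSRNOG00000048953, at 27.2-fold.

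When each of the 6 treated tumours was left out in turn, 6 of the 334 genes passed the test every time, 2 that rose and 4 that fell. All 334 passed when either rapamycin-alone tumour was left out, and most of them passed in no other of these fits. Both controls, on which all the calls rest, were kept in these fits, which reuse the same tumours. Passing them is therefore no separate support. ENSRNOG00000052713 was one of the 6. The other gene that rose went from 0.801 and 0.923 TPM in the controls to 22.4 and 25.4 TPM with rapamycin alone, 4.67 and 3.36 TPM with the clorgyline combination, and 14.2 and 16.3 TPM with the rasagiline combination (log2 fold change 2.76 with a 95% interval from 2.34 to 3.18; limma adjusted p = 0.00353). Its group differences of 3.74, 1.42 and 3.12 were the least even of the 6, and the clorgyline tumours were the lowest of the treated.

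The 4 genes that fell in all of these fits were well expressed in controls. The most abundant stood at 2080 and 1922 TPM in controls and between 334 and 473 TPM in treated tumours, 5.05-fold lower by the means of 2001 ± 112 TPM (SD, n = 2) and 396 ± 66.0 TPM (SD, n = 6, over 3 groups; 95% interval of the log2 fold change -2.66 to -2.04; limma adjusted p = 0.00169). The next stood at 358 and 360 TPM in controls and between 59.7 and 137 TPM in treated tumours, 4.22-fold lower (limma adjusted p = 0.0163). Another went from 89.2 and 117 TPM to between 21.3 and 31.8 TPM, 4.05-fold lower (limma adjusted p = 0.0138). The remaining gene went from 96.1 and 78.9 TPM to between 8.41 and 22.4 TPM, 7.01-fold lower (limma adjusted p = 0.0163). They were picked out after their values were seen.

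Separation of the groups reached well beyond the called genes. In 2217 tested genes (16.2%) all 6 treated tumours lay above both controls, and in 1219 (8.91%) all lay below. Of the called genes 168 and 160 were among them. The predominance of higher genes depended on the scaling. With the libraries quantile normalized the counts were 1694 above and 1721 below, and with their medians equalised 1586 and 1885. Calls followed the same course, at 171 higher and 163 lower as deposited, 143 and 235 after quantile normalization, and 124 and 247 after median rescaling. The median difference of all genes moved from 0.10 to 0.004 under the quantile and -0.004 under the median scaling.

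Few genes separated widely. Every treated tumour exceeded every control by at least 2-fold, on TPM with 1 added, in 46 genes, and lay at least 2-fold under every control in 44. Of these, 31 and 36 were called. At 4-fold there were 2 genes above and 4 below, all called, and at 8-fold the 2 named genes that rose and no gene below.

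Levels of the called genes differed between directions. Calls made up 1.27% of tested genes with a mean under 5 TPM, 2.19% from 5 to 20 TPM, 2.74% from 20 to 100 TPM and 5.02% from 100 TPM. The share that fell increased along these classes from 0.664% to 3.12%, while the share that rose went from 0.607% to 1.90%. The median SE of the log2 difference narrowed over the same classes from 0.279 to 0.162. The median difference from control was 0.20, 0.14, 0.05 and -0.01, largest in the weakest class. Among the 100 most abundant genes 1 rose and 6 fell, against 1.25% and 1.19% of all tested genes. All 6 treated tumours lay above both controls in 37 of the 100 and below in 15, against 16.2% and 8.91% of all tested genes. The median difference of the 100 was 0.26. These counts were taken only on the values as deposited.

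The 163 genes that fell held 5.24% and 5.05% of the TPM of the controls and between 2.35% and 3.17% of that of the treated tumours. Their 10 most abundant members held 3.02% to 3.20% in controls and 1.34% to 2.04% in treated tumours. The 171 genes that rose held 0.725% and 0.714% in controls and 1.54% to 2.32% in treated tumours. The genes were chosen on these values, which describe the size of the change and test nothing.

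The most abundant of the genes that fell went from 5052 and 5148 TPM in controls to between 2273 and 3924 TPM in treated tumours, 1.83-fold lower (limma adjusted p = 0.0481). The most abundant of those that rose went from 2392 and 2464 TPM to between 5351 and 7208 TPM, 2.41-fold higher (limma adjusted p = 0.0237). The gene with the highest level in controls overall stood there at 31726 and 35508 TPM and ran from 3620 to 29462 TPM in treated tumours. All 6 lay below both controls, but the highest of them, clorgyline combination replicate 1, nearly met the controls and the lowest was rapamycin replicate 2. The mean difference of -1.61 did not pass the test (limma adjusted p = 0.187).

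Genes listed at 0 on one side were few. In 4 genes both controls were at 0 and every treated tumour at 1 TPM or more, of which 2 were called. Apart from ENSRNOG00000052713, the largest treated values lay between 4.75 and 58.2 TPM. In 1 gene all treated tumours were at 0 while the controls stood at 2.67 and 2.21 TPM (limma adjusted p = 0.0237). The called gene with the largest mean fall stood at 37.5 and 44.3 TPM in controls (log2 fold change -4.71, limma adjusted p = 0.0434). It was at 12.5 TPM in rapamycin replicate 1 and at no more than 0.237 TPM in the other treated tumours. Its value in rasagiline combination replicate 2 was 4e-06 TPM, and such values between 0 and 0.001 TPM occurred in 49 tested genes, 3 of them called. Whether such values came from sharing reads between similar genes was not tested.

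A call on the mean of 3 groups can also come from fewer groups. In 6 of the 334 called genes, 3 in each direction, the treated tumours overlapped the controls. In the 3 that fell the clorgyline combination stood at -0.38, -0.37 and -0.12 against control, while rapamycin alone stood between -3.02 and -2.21 and the rasagiline combination between -2.05 and -1.76. In the 3 that rose, 1 was listed at 0 in controls and with rapamycin alone and stood at 3.17 to 5.73 TPM with either combination. Another rose in the mean through the rasagiline combination, at 37.7 and 37.0 TPM against 1.38 to 3.05 TPM in every other tumour. The third stood at 19.4 and 24.0 TPM with rasagiline, 0.807 and 2.91 TPM with rapamycin alone, and at most 0.479 TPM in the remaining tumours.

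A test of difference among the 3 treated groups passed in 2 genes (0.0146%; limma's moderated F test, Benjamini-Hochberg adjusted), both among the genes that rose. One is the second gene of the preceding set (adjusted p = 0.0307). The other stood at 14.3 and 15.9 TPM in controls, 18.1 to 24.2 TPM with rapamycin alone or with clorgyline, and 127 and 105 TPM with rasagiline (adjusted p = 0.0399). Before adjustment 892 genes had a p below 0.05 in it. Genes that missed this test are not shown to be alike in the groups. For 160 of the 334 called genes (47.9%) the 95% intervals of all 3 differences between treated groups lay within 1 log2 unit of 0, against 56.0% of all tested genes. The share was 38.0% for the higher genes and 58.3% for the lower ones.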

How the data were processed

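RNA from 8 tumours was extracted with TRIzol and made into TruSeq libraries, per the labels' protocols. The authors deposited 1 table of TPM values, with a column for each tumour. Per the submitters' processing notes, the tools were SAMtools 0.1.18, STAR 2.4.0f1, DESeq2 and bedtools and the build was rn6, with no role stated. How TPM was computed, with which annotation, and whether mouse reads were removed is not given in the sources used here.

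Genes with at least 1 TPM in at least 2 libraries were kept. limma 3.58.1 in R 4.3.3 fitted 4 group means to log2(TPM + 1) over all 8 libraries (4 residual degrees of freedom, median prior 3.37, intensity trend). The mean of the 3 treated groups was compared with control, two-sided, with Benjamini-Hochberg adjustment over all genes tested at 0.05, and the treated groups with each other by a moderated F test. The fit was also run on simulated data with known changes. There each gene had independent noise of the same spread in every tumour, so no tumour stood apart as rapamycin replicate 2 did. Plots used matplotlib 3.10.9 in Python 3.11.15. No 2 libraries held the same values, and replicate numbers pair no tumours.

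The comparison, lists and alternatives were chosen with earlier results of these data known. The 24 gene lists and 8 marker lists were written as symbols and could not be used. For IDs without symbols, the rule named 2 per direction by the widest gap; genes described without an ID were chosen after their values were seen. Alternatives were pseudocounts of 0.1 and 5 TPM, no filter or one of 5 TPM, median rescaling, quantile normalization, no variance trend, a fit of 2 groups and each library left out. When a library was left out, the remaining tumour of its group was assumed to have the spread of the others. Fits of 2 groups with a control left out and a fit without both rapamycin-alone tumours were chosen after seeing the data.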

Additional observations from a re-analysis of the deposited data

Results flagged for a closer look

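In 2 genes the change from control differed between the treated groups. In the first the limma F test among the 3 groups gave an adjusted p of 0.0307, with log2 differences from control of 0.34 for rapamycin alone, 0.31 for the clorgyline combination and 3.86 for the rasagiline combination. In the second it gave 0.0399, with 0.51, 0.42 and 2.86.

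Among the 6 treated tumours, rapamycin replicate 2 lay beyond Dixon's critical ratio for 6 values (0.625) in 2 of 12 measures. Its mean root mean square difference from the other treated tumours was 0.758, against 0.564 to 0.588 for each of those (Dixon ratio 0.879). On the second principal component of log2(TPM + 1), which held 25.6% of the variance and has an arbitrary sign, it stood at 48.7, against -29.3 to -10.1 for the other treated tumours (Dixon ratio 0.754). No treated tumour passed the critical ratio in the other 10 measures, which were the 4 named genes, 4 summaries of the called genes, the distance from controls and the first principal component. Chance passes it in about 1 in 20 groups, the measures overlap, and these 2 were examined after their values had been seen. More genes were called against control without this tumour, and still more without rapamycin replicate 1, which was not flagged. The rise in calls is thus not particular to the flagged tumour.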

How the results depend on the processing

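No result changed direction under any alternative for the 4 named genes, whose calls were lost in 10, 4, 11 and 6 of 19 alternatives (ENSRNOG00000016945, ENSRNOG00000052713, ENSRNOG00000027478 and ENSRNOG00000048953). These genes were picked for no overlap between treated and control tumours. Leaving out a library or changing the pseudocount, filter or model could therefore not reverse them, and their unchanged direction is no separate support. The 334 calls became 22 with no filter (18 shared, 3 higher and 19 lower), 137 without a variance trend (131 shared) and 971 without both rapamycin-alone tumours (321 shared); with 2 groups fitted and either control left out they were 0. They numbered 318 to 416 under the other settings with every library kept. Of the 334, these settings kept from 240 (2 groups fitted) to 305 (pseudocount 0.1 TPM), with 261 after median rescaling and 278 after quantile normalization. Leaving out single libraries gave 0 to 1306 calls, 2296 to 3918 genes above and 1305 to 2423 below without overlap (fewer libraries leave fewer to overlap), and 0 to 346 genes differing among the treated groups, the highest without rapamycin replicate 1.

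The share of calls that rose was 51.2%. It was 58.2% and 42.8% at pseudocounts of 0.1 and 5 TPM, 13.6% with no filter, 37.8% after quantile normalization, 33.4% after median rescaling, 61.4% without both rapamycin-alone tumours, and 28.6% to 61.9% with single libraries left out. After median rescaling 1885 genes lay below both controls. The 2 genes that differed among treated groups became 4 and 6 at pseudocounts of 0.1 and 5 TPM, 0 with no filter, and 1 without a trend or after quantile normalization. Unless stated, the cause of these changes was not tested. Sequencing depth, and what it limits, is unknown.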
